A study of Mus musculus with 4 samples.

Results

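The 42 genes described here belong to the programme by which B cells become antibody-secreting plasma cells and to the secretory machinery of the endoplasmic reticulum (ER) on which antibody release depends. They were taken from a list of gene symbols and are 42 of the 27745 gene names carried by the array: 5 plasma cell surface and regulator genes and 37 genes of ER entry, folding, quality control and stress sensing. All 42 had a probe. 41 were found by gene name, among them the J chain gene under its older symbol Igj and Manf under Armet, and Dnajc3 was found through its RefSeq accession.

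Gene expression was measured on single-colour mouse oligonucleotide arrays, 1 array per sample, in 2 B-cell lymphoma lines and 2 samples of B220+ splenocytes. The lymphoma lines were established independently from mice transgenic for the dopamine receptor 3, a G protein-coupled receptor. The splenocytes were spleen cells selected for B220, the form of the CD45 protein carried by B cells, and served as the controls. All 4 samples were labelled as C57BL/6N and female; the ages of the mice, the promoter of the transgene, the clonality of the lines and whether the splenocyte samples came from separate animals were not given in the sources used here. A difference between the groups is therefore one between established lines from transgenic mice, each represented by 1 array, and primary cells. Any part of the transgene in such a difference was not tested. The p-values measure the spread between these samples.

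Plasma cells export immunoglobulin in large amounts. Nascent chains enter the ER through the Sec61 channel, lose their signal peptide, are folded by chaperones, disulfide isomerases and lectins, and are sent back to the cytosol for degradation if they fail to fold. The sensors IRE1, ATF6 and PERK report unfolded protein in the ER and raise the expression of this machinery, a response that plasma cell differentiation uses through the transcription factor XBP1.

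Signals are given as the processed signal scaled so that the 75th percentile of each array is 1000, which allows arrays to be compared for 1 probe but not 1 probe with another. Before scaling, the 75th percentile was 1122 and 1315 on the arrays of lines 1 and 2, against 1078 and 514 on those of splenocyte samples 1 and 2, so splenocyte sample 2 was the dimmest. Between 24974 and 27319 probes per array were well above background and none was saturated. Across tested genes the 2 lines correlated with r = 0.991, the 2 splenocyte samples with r = 0.992, and a line with a splenocyte sample with r between 0.834 and 0.846. All 4 arrays lay on 1 slide and were read in 1 scan. The probe for the receptor gene Drd3 had scaled signals of 12.5 and 11.3 in lines 1 and 2, both well above background, against 8.87 and 5.70 in the splenocyte samples, neither well above background, and was not called (adjusted p = 0.064).

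Differences are given as log2 of lymphoma lines minus splenocytes, with the standard error and the p-value from limma adjusted by the Benjamini-Hochberg method over all 18316 tested genes. A gene was called higher or lower at an adjusted p under 0.05. The probes of all 42 genes were well above background on all 4 arrays, so none was reduced to a bound.

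Of the 42 genes, 26 were called higher in the lymphoma lines, 2 were called lower and 14 were not called. The genes called higher make up 61.9% of the 42, beside 30.6% of all tested genes called higher. The genes called lower, Dnajb9 and Derl2, make up 4.76%, beside 32.6% of all tested genes. At a change of at least 2-fold, 18 of the 42 were higher and 2 were lower, beside 21.5% and 24.4% of all tested genes. The 42 genes were chosen with earlier results of these data known, so these shares are descriptions and not a test. The median log2 difference was 0.77 over the 42 genes and -0.05 over all tested genes, and the fold changes of the 26 genes called higher ran from 1.41 to 3.84 with a median of 2.37. In 28 genes both lines lay above both splenocyte samples, in 5 both lay below, and in 9 the groups overlapped. The share of all tested genes with such a separation is not given here, so these counts only describe the 42 genes. In all, 11583 of the 18316 tested genes differed, of which 48.4% were higher in the lines; centring each array on its median in place of the 75th percentile moved that share to 63.2%, the median of all genes to 0.36 and that of the 42 genes to 1.18.

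**Figure D1:**
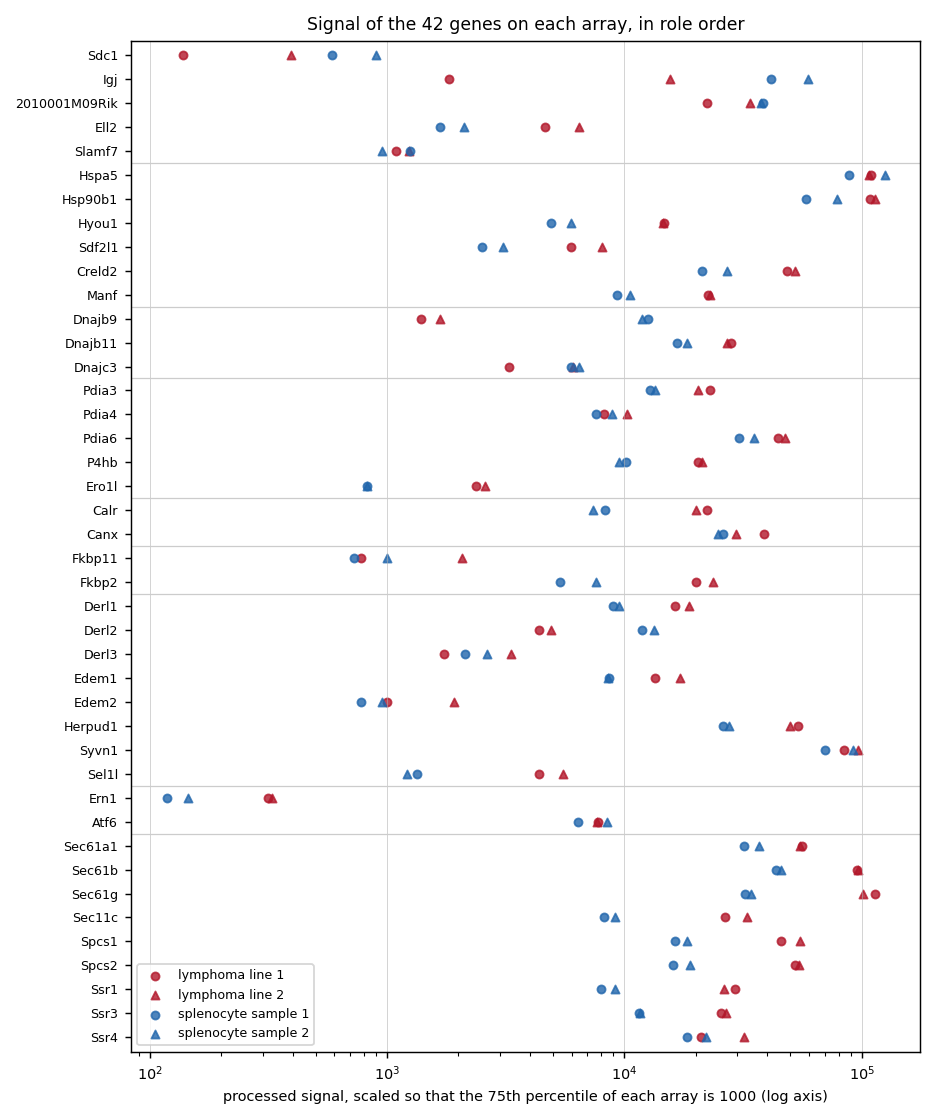
Scaled signal of the brightest probe of each of the 42 genes (x axis, log scale, 75th percentile of each array set to 1000) for lymphoma lines 1 and 2 (red) and splenocyte samples 1 and 2 (blue), with genes in role order from top to bottom. In 28 rows both red points lie right of both blue points, while Dnajb9, Derl2, Sdc1, Igj and 2010001M09Rik have both red points to the left; positions can be compared within a row only.

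**Figure D2:**
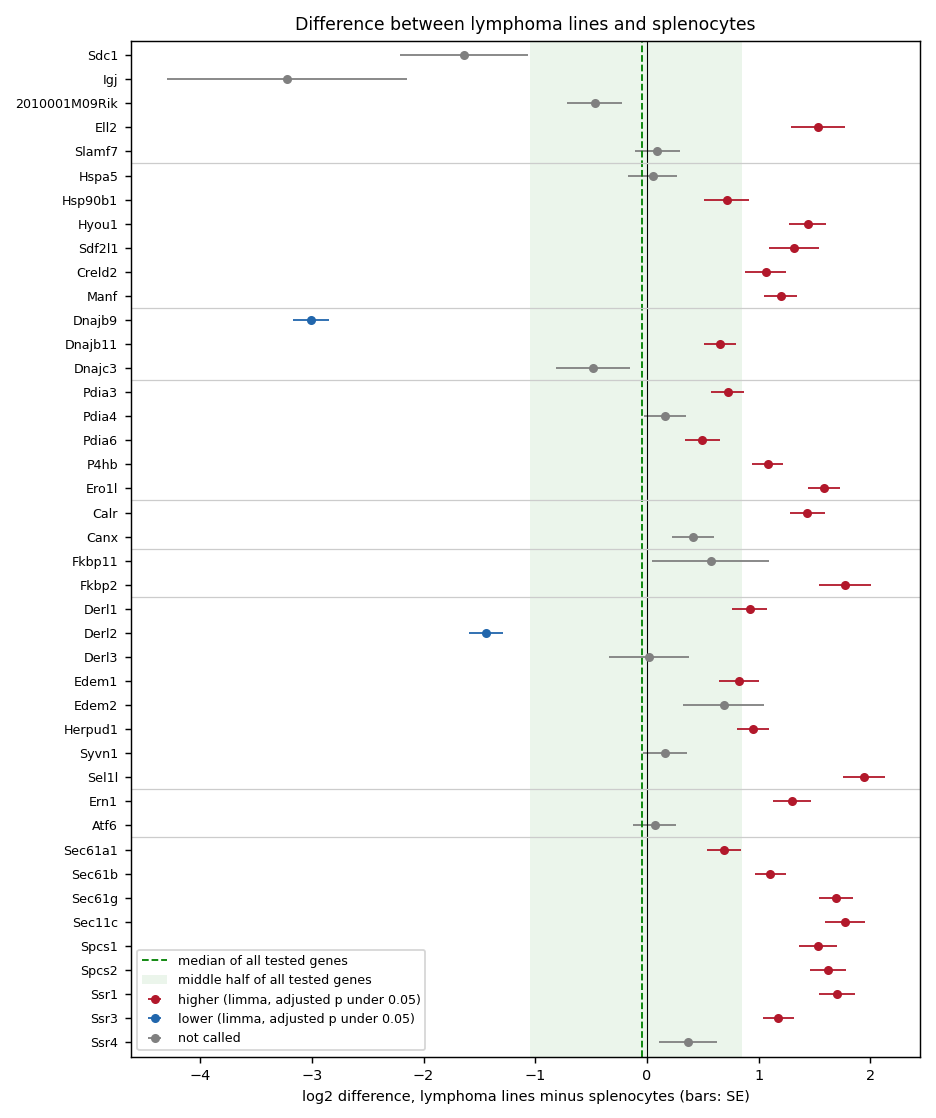
Log2 difference of each of the 42 genes, lymphoma lines minus splenocytes (points, with bars for the standard error; 2 arrays per group), coloured by the limma call. The dashed line is the median of all 18316 tested genes (-0.05) and the band runs from their 25th to their 75th percentile (-1.04 to 0.85). The 26 red points are the genes called higher and the 2 blue ones, Dnajb9 and Derl2, those called lower.

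Among the genes of protein entry into the ER, 8 of 9 rose and none fell, with a median log2 difference of 1.53. Sec61g, the gamma subunit of the Sec61 protein channel, had scaled signals of 113438 and 101877 in lines 1 and 2, against 32212 and 34305 in splenocyte samples 1 and 2. Both lines stood well apart from both splenocyte samples, by 1.69 ± 0.15 on the log2 scale (adjusted p = 0.0014); the probe lies at chr11:16401704-16401763 in the mm8 annotation of the array. Sec61b, the beta subunit, had 95954 and 96390 in the lines, against 43796 and 45609 in the splenocytes. That difference was 1.11 ± 0.14 (adjusted p = 0.0033), and the 2 lines were almost level. Sec61a1, the pore-forming alpha subunit, had 55908 and 54868 in the lines, against 31948 and 36996 in the splenocytes. Its groups did not overlap and the difference was 0.69 ± 0.15 (adjusted p = 0.018), a call that was lost when line 1 (0.67), splenocyte sample 1 (0.58) or splenocyte sample 2 (0.79) was left out, and when dim probes were not filtered (0.69).

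The signal peptidase, which cleaves the signal peptide during translocation, was represented by 3 genes, and all 3 rose. The catalytic subunit Sec11c had 26605 and 32834 in the lines, against 8196 and 9100 in the splenocytes, a difference of 1.77 ± 0.18 (adjusted p = 0.0019). The accessory subunit Spcs1 had 45889 and 55027 in the lines, against 16422 and 18360 in the splenocytes. Spcs2, which binds beside it, had 52307 and 54630 in the lines, against 15982 and 18954 in the splenocytes. Neither subunit showed any overlap between groups, with differences of 1.53 ± 0.17 for Spcs1 (adjusted p = 0.0025) and 1.62 ± 0.16 for Spcs2 (adjusted p = 0.0019).

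The translocon-associated protein complex, which helps some nascent chains through the channel, divided. Ssr1, its alpha subunit, had 29360 and 26346 in the lines, against 8013 and 9144 in the splenocytes, a difference of 1.70 ± 0.16 (adjusted p = 0.0016). Ssr3, the gamma subunit, had 25450 and 26850 in the lines, against 11515 and 11608 in the splenocytes, a difference of 1.18 ± 0.14 (adjusted p = 0.0029). For each of these genes, 2 of 3 tested probes were called higher. The third Ssr1 probe lay the other way and was not called (-0.38 ± 0.16, adjusted p = 0.093 over all tested probes). The third Ssr3 probe was not called either (0.44 ± 0.16, adjusted p = 0.061 over all tested probes). Ssr4, the delta subunit, had 21061 and 31876 in the lines, against 18327 and 22006 in the splenocytes. Line 1 lay between the splenocyte samples and line 2 above both, and Ssr4 was not called (0.37 ± 0.26, adjusted p = 0.27).

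Among the lumenal chaperones and stress-induced lumenal proteins, 5 of 6 rose and none fell (median 1.13). The exception was Hspa5, which encodes BiP, the Hsp70 chaperone of the ER and a standard readout of ER stress. Hspa5 had scaled signals of 109700 and 107809 in lines 1 and 2, against 88210 and 124951 in splenocyte samples 1 and 2. Both lines lay between the splenocyte samples, and the difference of 0.05 ± 0.22 was not called (adjusted p = 0.85; 95% interval -0.54 to 0.64 on the log2 scale). Its sign turned to -0.20 when splenocyte sample 1 was left out and to -0.08 when the percentile was taken over probes bright on all arrays.

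Hyou1, which exchanges the nucleotide on BiP, had 14767 and 14560 in the lines, against 4924 and 5945 in the splenocytes (1.44 ± 0.16, adjusted p = 0.0027). A second, dim Hyou1 probe ran the other way, with 16.7 and 29.3 in the lines, against 67.1 and 55.3 in the splenocytes. The mean of the 2 probes gave -0.01, so the call for Hyou1 rests on the brighter probe. Hsp90b1, the Hsp90 chaperone of the ER, had 108312 and 113706 in the lines, against 58314 and 78468 in the splenocytes. The lines were above both splenocyte samples by 0.71 ± 0.20 (adjusted p = 0.035), and the call was lost without line 1 (0.75), line 2 (0.68) or splenocyte sample 1 (0.50), with the percentile over bright probes (0.58) and with no filter on dim probes (0.71).

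Sdf2l1, a partner of the BiP cochaperone ERdj3, had 5984 and 8027 in the lines, against 2504 and 3087 in the splenocytes (1.32 ± 0.22, adjusted p = 0.0079). Creld2, an ER protein induced by stress, had 48281 and 52232 in the lines, against 21264 and 27059 in the splenocytes (1.07 ± 0.18, adjusted p = 0.0084). Manf, a stress-induced ER protein that can be secreted, had 22471 and 22995 in the lines, against 9322 and 10552 in the splenocytes (1.20 ± 0.15, adjusted p = 0.0033). These genes rose by 2.49-fold, 2.09-fold and 2.29-fold, each with no overlap between groups.

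The J proteins, which bring clients to BiP and start its ATP cycle, went in different directions: 1 rose, 1 fell and 1 was not called. Dnajb9 encodes ERdj4, which is induced by IRE1 and XBP1 and in turn holds IRE1 inactive. It had scaled signals of 1395 and 1666 in lines 1 and 2, against 12611 and 11910 in splenocyte samples 1 and 2. Both lines were far below both splenocyte samples, by 8.04-fold (log2 difference -3.01 ± 0.16, adjusted p = 0.00048), the lowest adjusted p of the 42 genes. All 3 Dnajb9 probes fell, by 2.81 to 3.01 on the log2 scale; the brightest lies at chr12:45076612-45076671 in mm8.

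Dnajb11, or ERdj3, had 28132 and 27201 in the lines, against 16738 and 18372 in the splenocytes. The groups were separate by 0.66 ± 0.14 (adjusted p = 0.017), although the call was lost without splenocyte sample 1 (0.59) or splenocyte sample 2 (0.72), with quantile normalization (0.42) and with no filter on dim probes (0.66). Dnajc3, which encodes the cochaperone p58IPK, had 3284 and 6056 in the lines, against 5968 and 6475 in the splenocytes. Line 1 was low and line 2 lay between the splenocyte samples, so Dnajc3 was not called (-0.48 ± 0.33, adjusted p = 0.27). Without line 2 it was called lower, at -0.92. A dimmer Dnajc3 probe was called higher instead (0.74 ± 0.15, limma adjusted p = 0.012 over all tested probes). The other 3 of its 4 tested probes were not called.

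Of the genes of disulfide formation, 4 of 5 rose and none fell (median 0.72). Ero1l, the oxidase that hands disulfide bonds to protein disulfide isomerase, had scaled signals of 2381 and 2586 in lines 1 and 2, against 825 and 827 in splenocyte samples 1 and 2. Its groups were tight and far apart, by 1.59 ± 0.14 (adjusted p = 0.0015). P4hb, protein disulfide isomerase itself, had 20526 and 21186 in the lines, against 10219 and 9492 in the splenocytes (1.08 ± 0.14, adjusted p = 0.0038). Pdia3, the isomerase that works with the lectin chaperones, had 22975 and 20454 in the lines, against 12779 and 13516 in the splenocytes (0.72 ± 0.15, adjusted p = 0.014). P4hb and Pdia3 were separate between groups, and the call for Pdia3 was lost without splenocyte sample 1 (0.68) or splenocyte sample 2 (0.76).

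Pdia6 and Pdia4, isomerases found in complexes with BiP, moved less. Pdia6 had 44493 and 47796 in the lines, against 30405 and 35084 in the splenocytes, and was the weakest of the called genes at 1.41-fold (0.50 ± 0.16, adjusted p = 0.048). That call was lost when any 1 array was left out (0.39 to 0.60) and in 9 of 14 alternatives in all, and 1 of its 4 probes ran the other way at -1.64. Pdia4 had 8236 and 10288 in the lines, against 7638 and 8837 in the splenocytes. Its groups overlapped and it was not called (0.16 ± 0.19, adjusted p = 0.48).

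The lectin chaperones calreticulin and calnexin hold glycoproteins until they fold, and 1 of the 2 rose. Calr had scaled signals of 22226 and 20157 in lines 1 and 2, against 8291 and 7363 in splenocyte samples 1 and 2, a difference of 1.44 ± 0.15 (adjusted p = 0.0023). Canx had 38819 and 29636 in the lines, against 26088 and 24922 in the splenocytes. Canx was above both splenocyte samples in both lines but was not called (0.41 ± 0.19, adjusted p = 0.13); without line 2 it was called higher, at 0.61.

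The prolyl isomerases of the ER, which speed the turning of peptide bonds before proline, likewise gave 1 call among 2 genes. Fkbp2 had 20146 and 23714 in the lines, against 5347 and 7612 in the splenocytes, and rose by 1.78 ± 0.23 (adjusted p = 0.0039). Fkbp11, a gene of secretory cells, had 777 and 2064 in the lines, against 725 and 1002 in the splenocytes. Only line 2 was above both splenocyte samples and Fkbp11 was not called (0.57 ± 0.52, adjusted p = 0.38); it was called higher without line 1, at 1.28, and its sign turned without line 2, at -0.13.

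Of the 8 genes of ER-associated degradation, 4 rose, 1 fell and 3 were not called (median 0.76). Sel1l, the adaptor that joins misfolded proteins to the HRD1 ubiquitin ligase, had scaled signals of 4358 and 5525 in lines 1 and 2, against 1341 and 1215 in splenocyte samples 1 and 2. This was the largest rise among the 42 genes, 3.84-fold (1.94 ± 0.19, adjusted p = 0.0017), with the probe at chr12:92212080-92212139 in mm8. Syvn1, the ligase itself, had 83995 and 96160 in the lines, against 70385 and 91736 in the splenocytes. Its groups overlapped and the difference was 0.16 ± 0.20 (adjusted p = 0.51), although the mean over its probes was called higher, at 0.70. Herpud1, which helps to assemble the ligase complex, had 53754 and 50024 in the lines, against 25958 and 27617 in the splenocytes, and rose by 0.95 ± 0.14 (adjusted p = 0.0056).

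The Derlins, membrane proteins that take part in moving substrates out of the ER, behaved differently from one another. Derl1 had 16310 and 18765 in the lines, against 8948 and 9546 in the splenocytes, and rose by 0.92 ± 0.16 (adjusted p = 0.0078), a call lost only without splenocyte sample 1 (0.87) among the 14 alternatives. Derl2 had 4385 and 4913 in the lines, against 11933 and 13303 in the splenocytes. Both lines lay below both splenocyte samples, by 2.71-fold (-1.44 ± 0.16, adjusted p = 0.0023), and its second probe was also lower (-0.55 ± 0.14, adjusted p = 0.025 over all tested probes). Derl3, which is prominent in plasma cells, had 1742 and 3329 in the lines, against 2139 and 2638 in the splenocytes. Line 1 lay below both splenocyte samples and line 2 above both, so the mean difference was close to 0 (0.02 ± 0.36, adjusted p = 0.97), reaching 0.49 without line 1 and -0.45 without line 2.

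The EDEM proteins trim or recognise mannose on misfolded glycoproteins. Edem1 had 13528 and 17114 in the lines, against 8662 and 8531 in the splenocytes, and rose by 0.82 ± 0.18 (adjusted p = 0.017), a call that was lost without splenocyte sample 1 (0.83) or splenocyte sample 2 (0.81). Edem2 had 1001 and 1913 in the lines, against 778 and 950 in the splenocytes. Edem2 was above both splenocyte samples in both lines, but line 1 only narrowly, and it was not called (0.69 ± 0.36, adjusted p = 0.16); without line 1 it was called higher, at 1.15.

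The stress sensors among the 42 genes were Ern1, which encodes IRE1, and Atf6. Ern1 had scaled signals of 315 and 328 in lines 1 and 2, against 118 and 145 in splenocyte samples 1 and 2. It rose by 2.46-fold with no overlap (1.30 ± 0.17, adjusted p = 0.0039). Atf6 had 7768 and 7663 in the lines, against 6381 and 8465 in the splenocytes. Both lines lay between the splenocyte samples, and Atf6 was not called (0.07 ± 0.19, adjusted p = 0.77; 95% interval -0.45 to 0.59).

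The plasma cell surface and regulator genes did not share a direction: 1 of 5 rose, none fell and 4 were not called (median -0.47). Ell2, a transcription elongation factor that promotes the secreted form of immunoglobulin mRNA, had scaled signals of 4621 and 6419 in lines 1 and 2, against 1672 and 2119 in splenocyte samples 1 and 2. The brightest probe rose by 1.53 ± 0.24 (adjusted p = 0.0064). A dimmer Ell2 probe had 200.2 and 265 in the lines, against 222 and 278 in the splenocytes, and the mean of both probes was not called (0.71).

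Igj, the J chain that joins IgM and IgA into polymers, had 1825 and 15627 in the lines, against 41649 and 59732 in the splenocytes. Both lines were below both splenocyte samples, but line 1 was far lower than line 2, and at -3.22 ± 1.08 the difference just missed the threshold (adjusted p = 0.057; 95% interval -6.13 to -0.32). It was called lower without line 1, at -1.67, and without line 2, at -4.77. A second Igj probe gave -3.28 ± 1.09.

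Sdc1, which encodes CD138, the surface proteoglycan used to identify plasma cells, had 138 and 396 in the lines, against 587 and 899.7 in the splenocytes. Both lines were lower, line 1 again the lowest, and Sdc1 was not called (-1.64 ± 0.57, adjusted p = 0.064) except, among single-array omissions, without line 2 (-2.40). The gene listed as 2010001M09Rik, now named Mzb1, encodes an ER cochaperone of B cells. It had 22275 and 34039 in the lines, against 38619 and 37544 in the splenocytes (-0.47 ± 0.25, adjusted p = 0.17), and was called lower without line 2, at -0.77. Slamf7, a surface receptor of plasma cells, had 1097 and 1238 in the lines, against 1250 and 952 in the splenocytes. Its groups overlapped and it was not called (0.09 ± 0.20, adjusted p = 0.70).

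**Figure D3:**
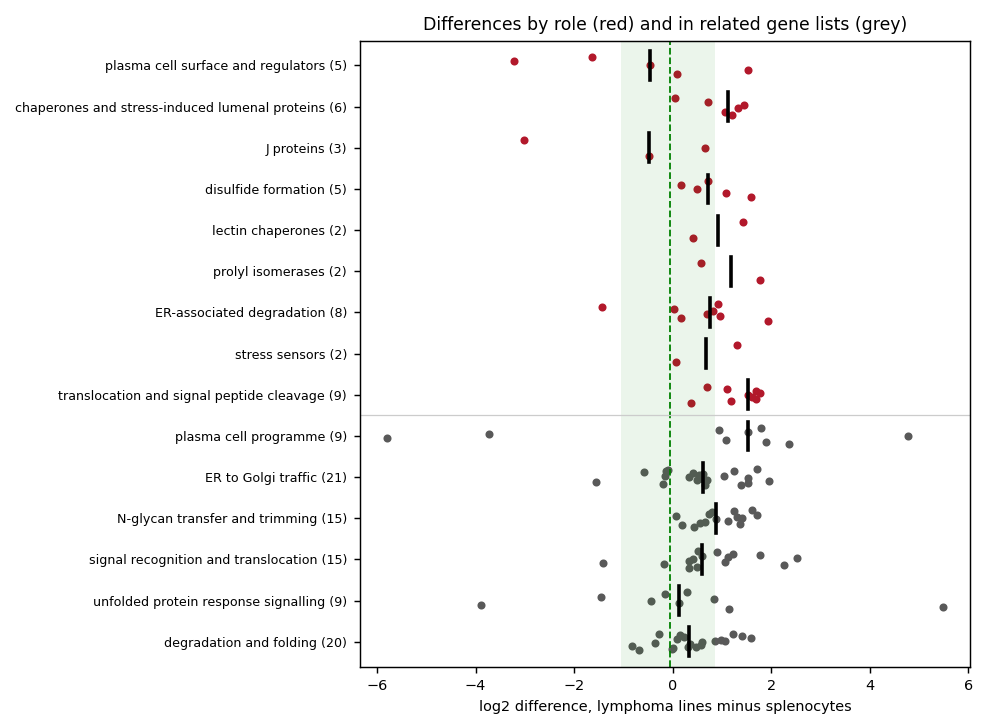
Log2 differences, lymphoma lines minus splenocytes, of the 42 genes by role (red) and of the 89 tested genes in 6 related lists (grey), with the number of genes in brackets and black bars at each median. The dashed line and the band are the median and the 25th to 75th percentile of all tested genes. Translocation and signal peptide cleavage has its 9 points between 0.37 and 1.77, whereas the plasma cell surface genes run from -3.22 to 1.53.

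The 2 lymphoma lines were compared by size alone, since each had 1 array. Of the 42 genes, 3 were apart by 1 or more on the log2 scale, or 7.14%, beside 6.58% of all tested genes. They were Igj, Sdc1 and Fkbp11, with line 1 below line 2 by 3.10, 1.52 and 1.41, against gaps of 0.52, 0.62 and 0.47 between the splenocyte samples in the same genes. In 31 of the 42 genes line 2 was above line 1, and in 11 it was below. The median of line 1 minus line 2 was -0.14 over the 42 genes and 0.00065 over all tested genes. The median size of the gap between lines was 0.17 over the 42 genes and 0.23 over all tested genes. Between the splenocyte samples it was 0.20 over the 42 genes and 0.16 over all tested genes, with sample 2, the dimmer array, above sample 1 in 34 of the 42.

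In all, 8 of the 42 genes were apart by more than 0.5, a count that was not made over all tested genes. Next in size after those 3 came Edem2, Derl3 and Dnajc3, with line 1 lower by 0.94, 0.93 and 0.88, and then 2010001M09Rik and Ssr4, lower by 0.61 and 0.60. Hspa5, Hyou1, Sec61a1, Sec61b and Atf6 differed between lines by 0.03 or less. None of the 8 genes was called between lines and splenocytes. A wide gap between the lines also widens the standard error of that comparison, so the lack of calls follows in part from how the 8 were picked.

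**Figure D4:**
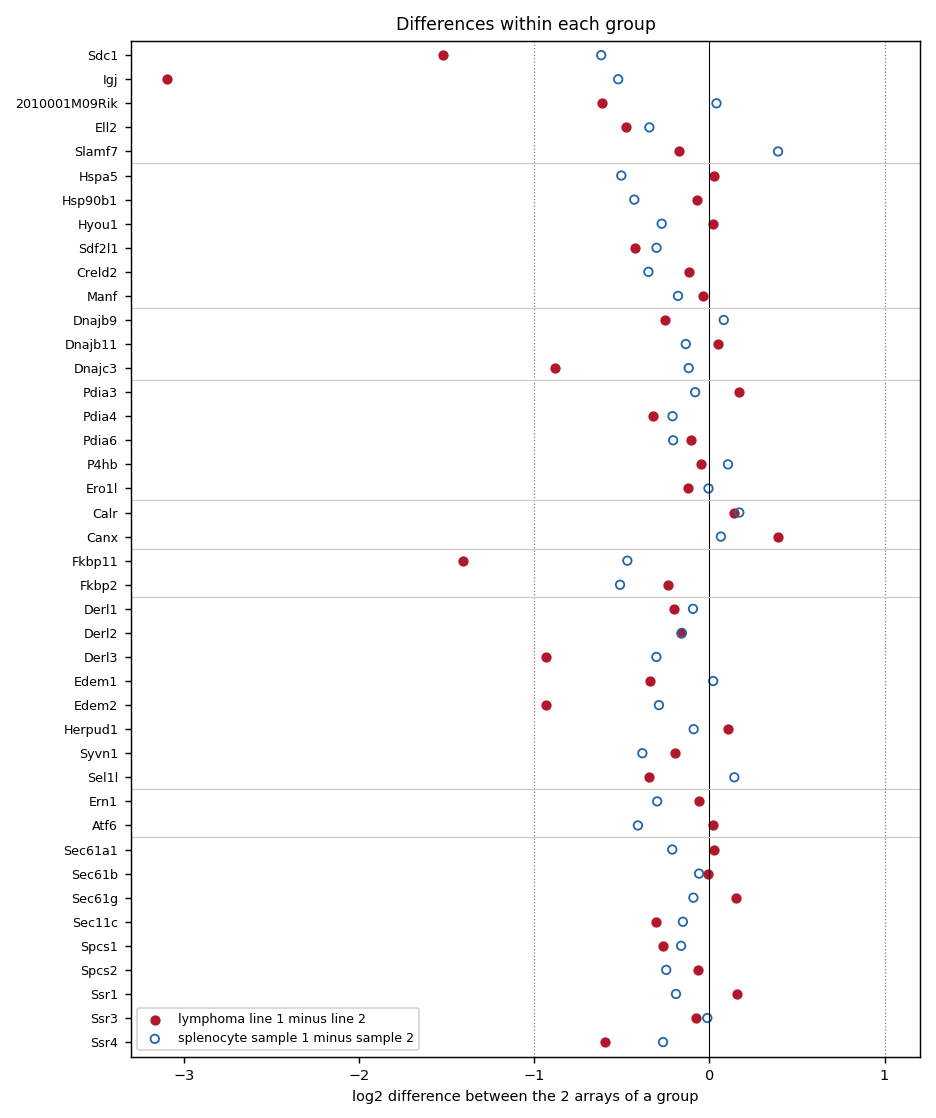
Log2 difference between the 2 arrays of each group for the 42 genes: lymphoma line 1 minus line 2 (filled red) and splenocyte sample 1 minus sample 2 (open blue). Dotted lines mark a difference of 1 in either direction; only the red points of Igj, Sdc1 and Fkbp11 lie beyond them.

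Several probes for 1 gene gave a check that does not depend on choosing the brightest. Of the 42 genes, 25 had several probes, and 24 had more than 1 that was tested. In 10 of the 24, every tested probe had the same call, among them Dnajb9 and Derl2 lower. In 6 none was called, in 5 some were called, and in 3, Hyou1, Pdia6 and Sec61a1, probes had opposite calls. For Sec61a1 a probe of intermediate brightness rose by 1.79 ± 0.14 and the dimmest was lower (-1.11 ± 0.24, adjusted p = 0.014 over all tested probes). The mean over the probes of Sec61a1 was not called (0.46).

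**Figure D5:**
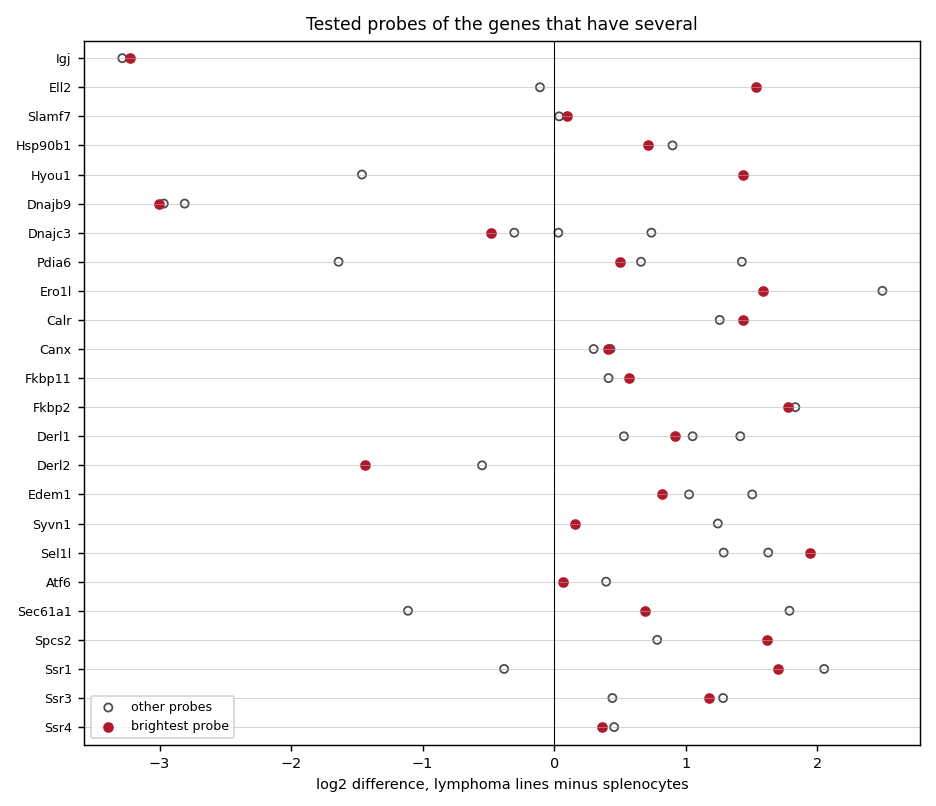
Log2 differences, lymphoma lines minus splenocytes, of every tested probe of the 24 genes with more than 1, with the brightest probe filled and the others open. The 3 probes of Dnajb9 lie between -3.01 and -2.81, while Hyou1, Pdia6 and Sec61a1 each have an open point below -1 and a filled point above 0.

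Promoters were examined because the stress response acts on this machinery through known sequences. RefSeq promoter windows (GRCm38.p6), from 250 bases before to 50 after the transcript start, were matched for 35 of the 42 genes. The ER stress response element, searched as CCAAT and CCACG with 9 bases between on either strand, was present in 9 of the 35, or 25.7%, beside 0.137% of 27025 genes with a window. The second such element, ATTGG and CCACG with 1 base between, was present in 2 of the 35, beside 0.044%, and the motif TGACGTGG was found in none of the 35, beside 0.714%. The 9 genes were Hspa5, Hsp90b1, Creld2, Dnajc3, Pdia6, Calr, Canx, Derl3 and Syvn1, and the 2 were Dnajb11 and Herpud1. The 3 motifs all contain the letters CCACG on one of the strands, so matches can overlap, but none of the 35 genes carried more than 1 kind. These are matches of letters, and binding was not measured.

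The stretches below, on the strand of each gene, show the element in genes that rose (Hsp90b1, Creld2, Calr, Herpud1) and in genes that were not called (Hspa5, Derl3), with 20 bases on either side. Capitals mark the letters of the motif; where it lies on the other strand it reads CGTGG and then ATTGG.
Hsp90b1: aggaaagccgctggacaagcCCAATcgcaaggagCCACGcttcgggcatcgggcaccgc
Creld2: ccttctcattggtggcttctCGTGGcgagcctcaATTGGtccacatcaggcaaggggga
Calr: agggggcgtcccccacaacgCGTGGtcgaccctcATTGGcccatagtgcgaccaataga
Herpud1: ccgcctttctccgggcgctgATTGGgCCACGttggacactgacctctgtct
Hspa5: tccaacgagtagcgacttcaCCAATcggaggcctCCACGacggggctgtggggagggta
Derl3: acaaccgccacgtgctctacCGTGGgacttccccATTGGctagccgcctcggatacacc
They lie at chr10:86705618-86705676 on the minus strand for Hsp90b1, chr15:88819500-88819558 on the plus strand for Creld2 and chr8:84847055-84847113 on the minus strand for Calr. The others lie on the plus strand, at chr8:94386357-94386407 for Herpud1, chr2:34772005-34772063 for Hspa5 and chr10:75893222-75893280 for Derl3. Counted from the transcript start, the element ran from position -65 to -47 in Hspa5 and from -212 to -194 in Hsp90b1, which carried another from -107 to -89.

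Motifs were found in genes with and without a call. Of the 35 genes with a window, 6 of the 21 called higher had any of the 3 motifs, as did 5 of the 12 not called and 0 of the 2 called lower. Hspa5 with no call and Calr at 2.71-fold higher both carried the first element, whereas Sel1l, with the largest rise, had none of the 3 in its window.

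Genes of the same pathway beyond the 42 were taken from 6 lists, 90 genes in all, of which 89 were tested: 48 were called higher, 8 lower and 33 were not called, with a median of 0.61. The shares were 53.9% higher and 8.99% lower, beside 30.6% and 32.6% of all tested genes, whose median was -0.05. These lists too were chosen with earlier results of these data known, so their shares only describe them. N-glycan transfer and trimming gave 12 higher and 0 lower of 15 (median 0.88). Its largest rises were in Stt3a, a catalytic subunit of the oligosaccharyltransferase (1.71 ± 0.18, adjusted p = 0.0022), and in Rpn1 (1.61 ± 0.15, adjusted p = 0.0017) and Krtcap2 (1.41 ± 0.22, adjusted p = 0.0063), subunits of the same enzyme. Signal recognition and translocation gave 9 higher and 0 lower of 15 (median 0.60). It was led by Srprb, the membrane subunit of the signal recognition particle receptor (2.52 ± 0.19, adjusted p = 0.001), Ssr2, the beta subunit missing from the Ssr genes above (2.25 ± 0.21, adjusted p = 0.0016), and Srp68 of the particle itself (1.78 ± 0.14, adjusted p = 0.0011).

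Traffic from the ER to the Golgi gave 11 higher and 2 lower of 21 (median 0.61). Kdelr2, a receptor that returns chaperones to the ER, rose by 1.96 ± 0.15 (adjusted p = 0.0011), Sec13, a COPII coat protein, by 1.71 ± 0.18 (adjusted p = 0.0021), and the cargo receptor Tmed2 by 1.53 ± 0.15 (adjusted p = 0.0017). Kdelr3, a relative of Kdelr2, was not well above background in either line, with scaled signals of 7.12 and 9.47, against 18.1 and 32.1 in the splenocytes. Kdelr3 entered the test through the splenocytes alone and was called lower (-1.55 ± 0.34, adjusted p = 0.017). Its size of 2.94-fold rests on the dim values of the lines, and the call was lost without line 1 (-1.35). The COPII coat gene Sec24b was also lower (-0.59 ± 0.15, adjusted p = 0.026), a call lost when any 1 array was left out (-0.67 to -0.50). In the list of degradation and folding, 7 of 20 rose and 2 fell (median 0.34), or 35% and 10%, the share that rose being near the 30.6% of all tested genes. The highest were Nploc4 (1.59 ± 0.14, adjusted p = 0.0014) and Vcp (1.40 ± 0.15, adjusted p = 0.0022), partners in pulling substrates from the membrane, and the lectin Erlec1 (1.23 ± 0.22, adjusted p = 0.01; not called without splenocyte sample 1, at 1.17). Txndc11 (-0.82 ± 0.21, adjusted p = 0.026) and Dnajc10, a reductase of degradation (-0.69 ± 0.16, adjusted p = 0.018), were lower. Both of these calls were lost without line 1 (-0.62 for Txndc11, -0.58 for Dnajc10), splenocyte sample 1 (-0.94 and -0.72) or splenocyte sample 2 (-0.71 and -0.66).

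Of 9 signalling genes of the unfolded protein response, 3 were higher, 2 lower and 4 not called (median 0.14); at 33.3% and 22.2%, the shares were near those of all tested genes, 30.6% higher and 32.6% lower. Trib3, a pseudokinase induced through the PERK branch and by amino acid shortage, had scaled signals of 5091 and 7121 in lines 1 and 2, against 117 and 155 in splenocyte samples 1 and 2. It rose by 44.6-fold (5.48 ± 0.25, adjusted p = 0.00034). Ppp1r15a, the phosphatase subunit GADD34 of the same branch, had 1484 and 1385 in the lines, against 19860 and 22872 in the splenocytes, and was lower by 14.9-fold (-3.89 ± 0.16, adjusted p = 0.00026). These neighbours in 1 branch thus differed in opposite directions, each with no overlap between groups. Eif2ak3, which encodes PERK, had 1548 and 2189 in the lines, against 4484 and 5676 in the splenocytes (-1.45 ± 0.25, adjusted p = 0.008). Wfs1 (1.14 ± 0.16, adjusted p = 0.0043) and Atf6b (0.85 ± 0.14, adjusted p = 0.0068) were higher.

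Of the 9 tested genes of the wider plasma cell programme, 6 were called higher, 2 lower and 1 was not called (median 1.53). The shares were 66.7% higher and 22.2% lower, beside 30.6% and 32.6% of all tested genes. Fam46c, also on that list, was not analysed here. Xbp1, the transcription factor that drives the secretory genes, had 5863 and 9980 in the lines, against 2354 and 2974 in the splenocytes (1.53 ± 0.32, adjusted p = 0.014). Prdm1, which encodes Blimp-1, the repressor that commits cells to plasma cell fate, had 1657 and 2477 in the lines, against 562 and 606 in the splenocytes (1.80 ± 0.24, adjusted p = 0.0042). Irf4, an upstream regulator, had 15194 and 16451 in the lines, against 9140 and 7491 in the splenocytes (0.93 ± 0.17, adjusted p = 0.01). All 3 regulators were higher in both lines, but the call for Xbp1 was lost without splenocyte sample 1 (1.36) and that for Irf4 without splenocyte sample 2 (0.79). Ckap4, an ER membrane protein (2.37 ± 0.19, adjusted p = 0.0011), and the ER-bound factor Creb3l2 (1.89 ± 0.24, adjusted p = 0.0037) also rose.

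Surface receptors of that programme were mixed. Tnfrsf17, the survival receptor BCMA of plasma cells, had 25 and 39.6 in the lines, against 279.8 and 620.03 in the splenocytes (-3.73 ± 0.47, adjusted p = 0.0035). Cd93 had 14.7 and 63.3 in the lines, against 1121 and 2541 in the splenocytes (-5.79 ± 0.83, adjusted p = 0.005). Both receptors were lower in both lines. Ccr10, a homing receptor of IgA plasma cells, had 359 and 871 in the lines, against 4.79 and 87.8 in the splenocytes, with splenocyte sample 1 not well above background. Ccr10 was called higher (adjusted p = 0.048), but the size rests on that dim value: against splenocyte sample 2 alone the log2 difference was 2.67 (adjusted p = 0.032), and the call was lost without line 1 (adjusted p = 0.11) or line 2 (adjusted p = 0.17). Cd28 had 57.0 and 126 in the lines, against 38.3 and 42.4 in the splenocytes, and was not called (1.07 ± 0.42, adjusted p = 0.083), except without line 1 (1.65).

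Over the 2 plasma cell lists together, 7 of 14 tested genes were called higher, 2 lower and 5 were not called. Of all tested genes, 30.6% were called higher and 32.6% lower. A shorter list of 7 plasma cell markers, all from those 14 and listed as markers of the cell type, gave 2 higher (Prdm1, Xbp1), 1 lower (Tnfrsf17) and 4 not called (Sdc1, Igj, 2010001M09Rik, Slamf7). The 2 of 7 called higher are near the 30.6% of all tested genes. The genes of the 2 lists outside it were Ell2, Irf4, Ccr10, Creb3l2 and Ckap4, called higher, Cd93, called lower, and Cd28, not called. All 7 markers were well above background on all 4 arrays. In bulk RNA, fewer cells of a type and less RNA per cell cannot be told apart, so the lower Igj and Sdc1 signals of the lines do not say which applies.

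Markers of other cell types also moved between the groups. The counts below stand beside 30.6% of all tested genes called higher and 32.6% called lower. All 8 B cell markers were well above background on every array, and 6 of the 8 were called lower in the lines and none higher. Their scaled signals summed to 439454 and 429408 in lines 1 and 2, against 748089 and 950816 in splenocyte samples 1 and 2. Such sums weigh bright probes most. The largest part in the lines came from Ms4a1, which was not called, with 162716 and 145294 in the lines, against 141243 and 168951 in the splenocytes. Of 5 T cell markers, 1 was called higher, Cd3g (4.36 ± 0.17, adjusted p = 0.00025), and 2 lower, with sums of 5366 and 6430 in the lines, against 1233 and 1079 in the splenocytes. Most of the sum in the lines was Cd3g, and without it the other 4 markers summed to 277 and 285 in the lines, against 945 and 821 in the splenocytes. Of 5 tested myeloid markers, 1 was called higher, Adgre1 (4.23 ± 0.18, adjusted p = 0.00028), and 4 lower, with sums of 35379 and 35718 in the lines, against 3788 and 3262 in the splenocytes. Without Adgre1 the other 4 markers summed to 61.4 and 44.4 in the lines, against 1656 and 1574 in the splenocytes, the opposite order. The plasmacytoid dendritic cell markers gave 1 higher, Siglech (2.20 ± 0.58, adjusted p = 0.029; not called without line 2, at 1.61, or without splenocyte sample 1, at 1.62), and 2 lower of 4, with sums of 7681 and 8529 in the lines, against 6881 and 7479 in the splenocytes. Most of these sums came from Bst2, which was not called, with 7567 and 8315 in the lines, against 6775 and 7309 in the splenocytes. Both tested NK cell markers were lower, with sums of 45.5 and 37.8 in the lines, against 692.0 and 692.2 in the splenocytes, and 2 of 3 tested erythroid markers were lower, with sums of 2352 and 894 in the lines, against 5649 and 5724 in the splenocytes. Most of the erythroid sums came from Hbb-b1, which was not called, with 2073 and 699 in the lines, against 3845 and 3892 in the splenocytes. Of the 18 markers called lower in all these lists, 6 (Klrd1, Cd8a, Alas2, Itgax, Lyz2 and Klra17) were not well above background in either line and entered the test through the splenocytes alone. The probe taken for Lyz2 is named Lyz on the array, and its RefSeq accession now belongs to Lyz1. The part of other cells in the differences of the 42 genes was not tested.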

How the data were processed

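Spot intensity was deposited by the authors as processed signal, background-subtracted and detrended by Agilent Feature Extraction 9.5.1.1 per the file headers (9.5 per the submitters' processing notes); the deposited flags, which score each spot as 0 or 1 for background, saturation and outliers, were used for filtering. The authors' deposited values of the whole series equal these intensities times 1 factor per array and were used only as a check. Signals were divided by the 75th percentile of the 43379 non-control spots of each array and taken as log2. Spots with a uniformity or population outlier flag on at least 1 array were dropped, and testing required a signal well above background on 2 or more of the 4 arrays. Each gene was represented by its brightest tested probe. Fits used limma 3.58.1 (lmFit, eBayes) in R 4.3.3, without blocks, and were tested on simulated data. The number of arrays limits the precision: 2 residual degrees of freedom, with 2.32 added from all genes. The genes named are all 42 and every gene of the plasma cell programme. Of the other lists, up to the 3 largest called changes in each direction are named, with Sec11a and Spcs3. Markers are named where called higher, dim in both lines or making up most of a sum, with Ms4a1. The members and lists were chosen with earlier results of these data known. Promoters came from RefSeq. The amino acid sequences were not used here.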

Additional observations from a re-analysis of the deposited data

Results flagged for a closer look

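Derl3 was the 1 gene of the 42 for which the lymphoma lines lay on opposite sides of the splenocyte samples. Its scaled signals were 1742 and 3329 in lines 1 and 2, against 2139 and 2638 in splenocyte samples 1 and 2. Line 1 minus line 2 was -0.93 on the log2 scale, while the splenocyte samples were 0.30 apart. Each line had 1 array and both are set against the same splenocyte samples, so the difference was not tested.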

How the results depend on the processing

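Over 14 alternatives, 1 of them (leaving out every probe with a marked spot) chosen after seeing the data, 524 values of the 42 genes kept direction and call, 29 lost the call, 21 gained it and 14 changed sign. Of the 26 genes called higher, 17 kept direction and call throughout, as did Dnajb9 and Derl2; of the 14 not called, 10 were called in some alternative and 4 in none. The members' median was 1.18 with centring on the median, 0.64 with the percentile over probes bright on all arrays, and 0.75 to 1.01 with 1 array left out, the highest without line 1. Subtracting the median of all genes, it ran from 0.61 (quantile normalization) to 1.16 (no filter on dim probes), against 0.82. Centring added calls for Canx (0.82), Edem2 (1.09), Pdia4 (0.57) and Ssr4 (0.77). Genes called lower numbered 4 with normexp, with only probes bright on all arrays and with a variance trend, Igj and Sdc1 being added, and 2 to 6 with 1 array left out, the highest without line 2. Genes called higher numbered 19 to 25 and all genes called 8411 to 10998 with 1 array left out; a lone array was then assumed to vary like the other group.

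Signs changed for Derl3 (-0.0595 with quantile normalization, -0.11 with the percentile over bright probes, -0.45 to 0.49 with 1 array left out, including -0.13 without splenocyte sample 1), Atf6 (-0.0755 with quantile normalization, -0.0625 with the bright-probe percentile, -0.13 to 0.27 with 1 array left out), Hspa5 (-0.0818 with the bright-probe percentile, -0.20 to 0.30 with 1 array left out) and Slamf7 (-0.0378 with the bright-probe percentile, -0.10 to 0.29 with 1 array left out). They also changed for Fkbp11 (-0.13 to 1.28 with 1 array left out), Syvn1 (-0.0296 to 0.35 with 1 array left out) and Hyou1 (-0.0114 as the mean over probes); the cause was not tested. The count of genes apart between lines was 3 in each of the 5 alternatives run.

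The shared replicate numbers did not pair the samples: deviations of same-numbered samples correlated at 0.014. With the replicate block, 25 of the 42 genes were called higher and 4 lower, and 10804 of all genes were called. Leaving out arrays for the related genes and markers was added after seeing the data. A slide block was not run, since 1 slide held all arrays. Precision is limited by 2 arrays per group and, for dim probes, by signal over background.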
